A study of Mus musculus with 14 samples.

Results

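The 4 normal mouse lungs described here were the control arrays among 14 arrays of a study of lung tumors that arise in mice carrying a c-Myc transgene driven by the surfactant protein C (SPC) promoter. The 4 were all the samples labelled as control lung. They came from non-transgenic animals of the strain written in the labels as CD2F1-(DBA/2xBalb/C), aged 9 to 13 months, with no treatment named before CO2 was given in overdose, and lungs were rinsed in cold saline after removal. Each lung was 1 animal hybridised to 1 Affymetrix U74v2 oligonucleotide array, so the spread between animals and the spread between arrays cannot be told apart. The labels give neither sex nor litter. Only 1 group was described, so no test between groups was made and every value below is a description.

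The alveolar wall of the lung is lined by flat type I cells, across which gas is exchanged, and by cuboidal type II cells, which secrete surfactant, the film of lipid and protein that keeps alveoli open. Club cells and ciliated cells line the conducting airways, and capillary endothelium, fibroblasts, smooth muscle and alveolar macrophages make up much of the remaining tissue. RNA of the whole organ is a mixture of all of these and of blood, and in such bulk RNA fewer cells of a type and less RNA per cell cannot be told apart.

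Every value is a MAS5 signal, a linear intensity in arbitrary units that the authors scaled to 1 target on each array. A probe set is the group of short probes read as 1 transcript, and its signal depends on its probes as well as on the transcript, so ranks below are ranks of signal and not of molecule number. Signals are given in the order of lungs 1, 2, 3 and 4, means are over the 4 lungs with their SD (n = 4), and each rank is among 12422 probe sets, array controls left out. For a gene with several probe sets the one of highest mean signal was used.

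A signal of 70 was used here as the lower limit. The methods of the study take such a limit together with a present call of the array software, and here the signal alone was used. The limit was reached by 7400, 7185, 7236 and 7575 probe sets in lungs 1 to 4. A signal of 70 was reached on all 4 lungs by 6600 probe sets (53.1%), and on none by 4262 (34.3%), while 520, 396 and 644 reached it on 3, 2 and 1 of the lungs. By their probe set of highest mean, 5153 of the 8251 genes with a symbol (62.5%) were at 70 or more on all 4 lungs. The share below 70 on all 4 was 25.6%. The counts of each list below are set against these shares. The lists were chosen with earlier results of these data known, so list counts beside shares of all genes are a description and not a test. Those just inside the limit by their lowest lung were Mgst2, a microsomal glutathione transferase (78.1, 81.7, 81.0 and 70.1), a probe set with no symbol, and a second probe set of the noncoding RNA Tug1 (97.6, 70.2, 81.9 and 259.8). Just outside were Mageb3 (107.1, 88.1, 69.9 and 159.5), 1 of the probe sets for the immunoglobulin heavy chain Ighm (75.9, 69.9, 110.3 and 129.2) and another with no symbol.

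The lungs resembled each other most in the pair of lungs 1 and 2. Over all probe sets, with signals below 70 set to 70, the Pearson correlation of log2 signals was 0.988 for lungs 1 and 2, 0.980 for lungs 1 and 3, and 0.977 for lungs 2 and 3. Lung 4 stood apart, with correlations of 0.959, 0.952 and 0.957 with lungs 1, 2 and 3. Genes are not independent replicates, so no p is given with these. Of the 6600 probe sets, 14 were at least 2-fold apart between lungs 1 and 2, and 463 between lungs 2 and 4.

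Lung 3 had a flatter upper end than the others. Its highest signal was 6496, against 9317, 12289 and 12139 in lungs 1, 2 and 4, and it was the lowest lung for 93 of the 100 probe sets of highest mean signal. The mean over those 100 was 5239, 6128, 4133 and 5716. After scaling to 1 median lung 3 was lowest for 88 of the 100, and after quantile normalization, which forces the same set of values on all 4 arrays, for 18.

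**Figure D1:**
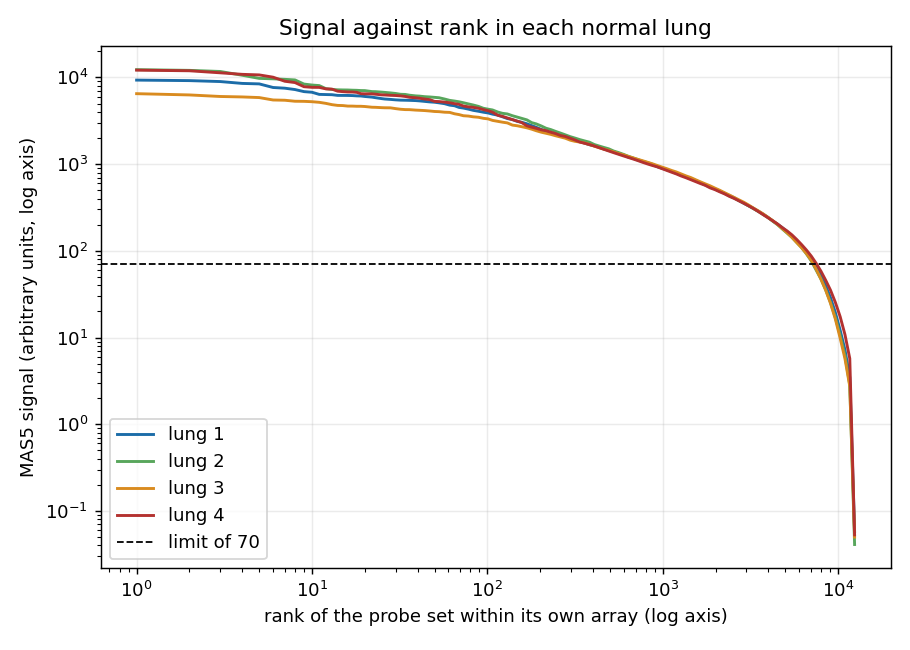
Signal against rank within each array, both on log axes, for the 4 normal lungs, with the limit of 70 as a dashed line. The curve of lung 3 starts at 6496, below the 9317 to 12289 of the others, and the 4 curves cross the limit between ranks 7185 and 7575.

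The highest mean signals were those of hemoglobin, of secreted proteins of the airway and alveolar epithelium, and of the machinery of translation. The probe set of highest mean was Hba-a1, the alpha chain of adult hemoglobin, at 10007 ± 2834. Its signals were 9317, 12289, 6283 and 12139. Blood transcripts headed the order although the lungs had been rinsed.

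Sftpc, surfactant protein C, a peptide made only by type II cells, followed at rank 2 with signals of 9191, 12067, 6029 and 11936. Scgb1a1, the main secreted protein of club cells, was at rank 4 with 8532, 10599, 5859 and 10856. Hba-a1, Sftpc and Scgb1a1 had the same order of lungs apart from the places of lungs 2 and 4. The first 36 probe sets by rank held 25 named genes and 11 probe sets without a symbol of their own.

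Ribosomal and translation genes came next among named genes. Rpl41 and Rps24, proteins of the large and small ribosomal subunits, had means of 8425 ± 2103 and 6654 ± 1245. Eef1a1, which brings aminoacyl-tRNA to the ribosome, was at rank 7 with 7516, 9506, 5249 and 9036, and Tpt1, a translationally controlled protein, at rank 8. Of the cytosolic ribosomal proteins, 22 of 31 on the array were at 70 or more on all 4 lungs and 8 were below it on all 4. The shares of all genes were 62.5% and 25.6%. Every cell makes ribosomal proteins, so a signal below 70 does not show that a transcript was absent.

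Among the first 25 was also Ager, the receptor for advanced glycation end products and a mark of type I cells, with 6129, 7199, 4502 and 6404. Inmt, an indolethylamine methyltransferase abundant in lung fibroblasts, had 6198, 7271, 5165 and 7688. Aldh1a1, a retinal dehydrogenase, Gpx3, a secreted glutathione peroxidase, and Fth1, the ferritin heavy chain, had means of 5877 ± 1122, 6232 ± 1136 and 6237 ± 1056. The class I antigens H2-K1 and H2-D1 had 5513, 6236, 5314 and 6797, and 5559, 6392, 4448 and 6495. All of these genes were lowest in lung 3, as were all 25 of the leading genes (24 after scaling to 1 median and 11 after quantile normalization).

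Others in the first 25 were Hbb-b2 (a beta chain of hemoglobin, 5772 ± 1153), Ybx1 (an RNA-binding protein, 5669.8 ± 1227), Tmsb4x (which binds free actin, 5655 ± 803), Sftpb (surfactant protein B, 5651 ± 1336), App (the amyloid precursor protein, 5575 ± 813), Eng (endoglin of endothelium, 5550.0 ± 863) and Gsn (gelsolin, which severs actin, 5549.8 ± 1331). The G protein subunits Gnai2 and Gnas had 5535 ± 886 and 5472 ± 1052. Wdr92 had 6112 ± 1545.

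The probe set of Sprr1b, a protein of the cornified envelope of squamous epithelium, ranked 35 with 5023, 6673, 3376 and 6857. A second probe set annotated to Sprr1b had signals of 1.91, 0.673, 0.618 and 2.41. The probe sets of this gene therefore do not give 1 level. Gnas likewise had other probe sets at a mean of 37.7 and 3.89. Of 2073 genes with more than 1 probe set, 747 (36.0%) had 1 at 70 or more on all 4 lungs and another below 70 on all 4, and the median ratio of the highest to the lowest mean among probe sets of a gene was 5.16.

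**Figure D2:**
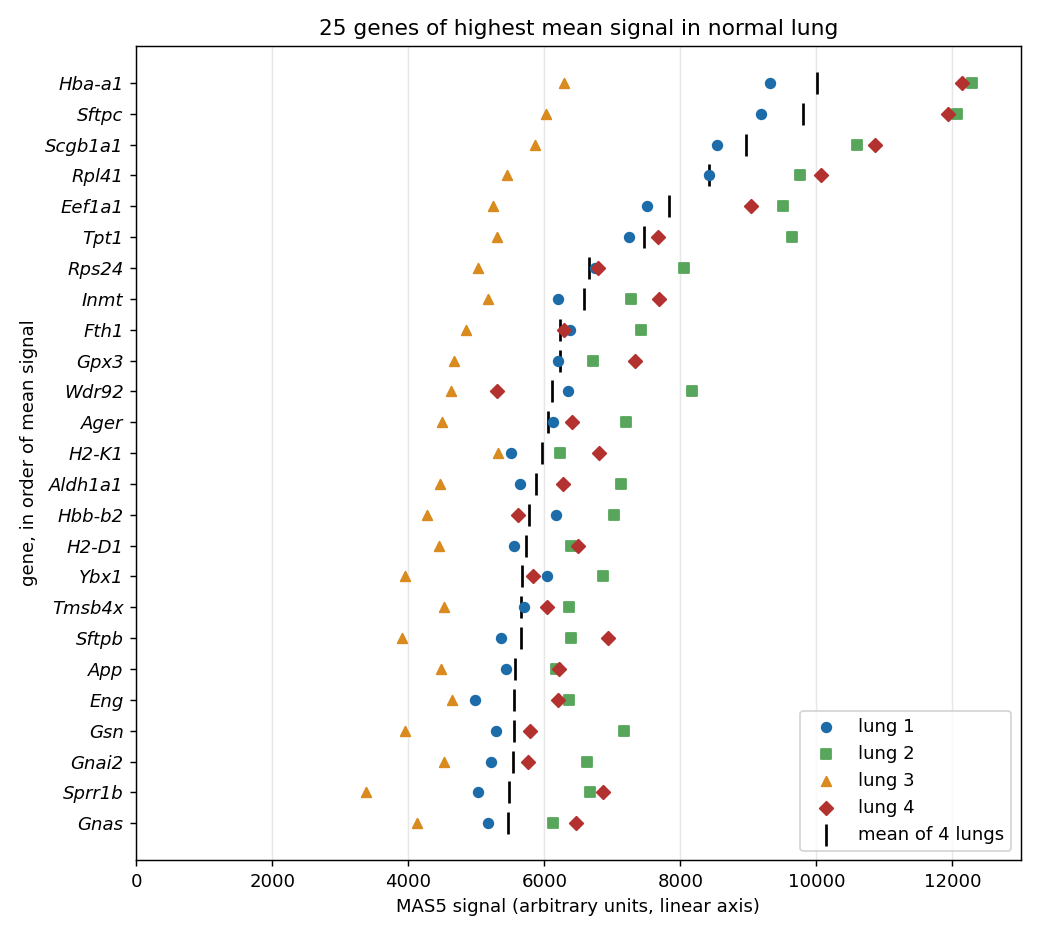
Signals of the 25 named genes of highest mean in each of the 4 normal lungs, on a linear axis, with the mean as a bar. Hba-a1, Sftpc and Scgb1a1 lead with means of 10007, 9806 and 8961, and lung 3 is the lowest for all 25.

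In the type II list, 10 of 11 genes were at 70 or more on all 4 lungs, against 62.5% of all genes. Beside Sftpc and Sftpb they included Scd1, the stearoyl-CoA desaturase that makes monounsaturated fatty acids (3895, 4405, 4257 and 4980.4), Lyz2, lysozyme (3962, 4898, 3495 and 4682), Slc34a2, the phosphate transporter of type II cells (3728, 4617, 3472 and 3284), and Napsa, the aspartic protease that processes surfactant proteins (3005, 3032, 2884 and 2555). The exception was Sftpd, surfactant protein D, with 49.2, 41.3, 38.1 and 87.3, below 70 in lungs 1, 2 and 3. Sftpd is a defining product of type II cells, and this low signal is that of its only probe set here.

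All 6 genes of the type I list passed on all 4 lungs, and after Ager came Hopx, a homeodomain protein (4813, 5982, 3496 and 5276), and Cav1, the coat protein of caveolae (3765, 4394, 2893 and 3399.6). Of the club cell genes 8 of 9 passed, led by Scgb1a1, Aldh1a1, the cytochrome P450 Cyp2f2 (5057, 6108, 4119 and 6472) and Cyp2b10 (3416, 3309, 2524 and 3119). Within that list the antimicrobial lectin Reg3g differed most between lungs, with 77.7, 82.3, 229 and 204. Of 6 ciliated cell genes only Rsph1, a radial spoke protein (635, 714, 619 and 969), and Foxj1, the transcription factor of motile cilia (662, 569.6, 394 and 695), passed on all 4 lungs. Of all genes 62.5% passed on all 4 lungs.

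Of the endothelial genes 18 of 21 were at 70 or more on all 4 lungs, against 62.5% of all genes, among them Ramp2, which modulates the calcitonin-like receptor (4082, 5394, 3174 and 3517), the tight junction protein Cldn5 (3115, 3489, 3046 and 3192) and Cdh5, VE-cadherin (3362, 2964, 2802 and 2241). In the fibroblast and matrix list all 26 genes passed, with the proteoglycan Bgn at 3876, 4783, 3583 and 5105 and the basement membrane collagen Col4a2 at 2267, 2694, 2154 and 2126. The fibrillar collagens Col1a1 (516, 641, 1153 and 709) and Col3a1 (286, 221, 660.0 and 477) were highest in lung 3, but a second probe set of Col1a1 was highest in lung 4 (491, 486, 578 and 685). Smooth muscle was represented by Mylk, myosin light chain kinase (2015, 2626, 2378 and 2646), and Acta2, smooth muscle actin (1212, 1268, 1589 and 1040.0).

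The highest immune signals were of antigen presentation, lysosomes and immunoglobulin. Cd74, the invariant chain of class II antigens, had 4322, 5292, 3730.0 and 4634, and Ctsd, cathepsin D, 2818, 2899, 2266 and 2696. Chil3, a chitinase-like protein of alveolar macrophages, had 1880.2, 1997, 1361 and 846. The immunoglobulin heavy chains Igha and Ighm had 2257, 2309.5, 1828 and 2322, and 1764, 1917, 1558 and 1663. The T and NK cell list passed for 3 of 20 genes, against 62.5% of all genes.

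Genes of detoxification and redox control reached high signals. Of that list 33 of 35 passed on all 4 lungs, with Gstm1, a glutathione transferase, at 5094, 5520.2, 4067 and 6466, and Cyp4b1, a cytochrome P450 of lung, at 5580.1, 5833, 4031 and 5544. Of the lung transcription factors 34 of 36 passed, led by Sox18, an endothelial factor (2170.3, 2132, 1800.2 and 1537), Cebpd and Cebpa, leucine zipper factors (1878, 1812, 1579 and 1875, and 1769, 2058, 1539 and 1741), and Epas1, the hypoxia-inducible factor HIF-2 alpha (1482, 2172, 1426 and 1212). Immediate early genes were also measurable, with 28 of 33 on all 4 lungs. Of all genes 62.5% were at 70 or more on all 4 lungs. Jund, a subunit of AP-1, had 3501, 4406, 2776 and 3854, Dusp1, a phosphatase of MAP kinases, 2459, 2598, 2272 and 2511, and Rhob, a small GTPase, 2347, 2212, 1874 and 1695.

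Of the cell division list 13 of 30 were at 70 or more on all 4 lungs and 8 were below 70 on all 4, against 62.5% and 25.6% of all genes. Stmn1, which destabilises microtubules, had 1179, 1039, 1074 and 993, Pcna, the sliding clamp of DNA polymerase, 493, 521, 582 and 490.5, and Ccnb2, a mitotic cyclin, 200.3, 183, 202 and 318. The proteasome list, by contrast, passed for 27 of 28 genes, with the core subunits Psma3 (1658, 1815, 1938 and 1543) and Psma2 (1471, 1596, 1684 and 1259) highest. Lung 3 was the highest lung for 19 of these 27 genes, against 28.5% of all 5153 genes at 70 or more on all lungs.

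Of the fat cell genes 6 of 11 passed on all 4 lungs, a share near the 62.5% of all genes. Of the mast cell and basophil genes 3 of 10 passed. Lpl, lipoprotein lipase, had 1053, 1051, 635 and 473, and Adipoq, the fat cell hormone adiponectin, 238, 189.9, 241 and 390.5. Thrsp, a regulator of fatty acid synthesis, was highest in lung 4 (125, 131, 108 and 368). Kit, the receptor of stem cell factor, had 753, 815, 809 and 596, while the mast cell protease Cma1 was below 70 in lungs 1 to 3 (50.7, 65.7, 69.1 and 87.9).

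Genes of other organs were mostly below the limit. In the liver list 13 of 17 genes were below 70 on all 4 lungs, against 25.6% of all 8251 genes, with albumin (Alb, 51.9, 40.4, 41.6 and 36.3) among the 13. The 3 at 70 or more on all 4 lungs were haptoglobin (Hp), which binds free hemoglobin (4508, 5700.2, 4758 and 5222), Cyp2e1, a cytochrome P450 (522, 571, 338 and 493), and G6pc, glucose-6-phosphatase (120.2, 131, 113 and 282). In the list of pancreas, gut and kidney genes 10 of 12 were below 70 on all 4 lungs, and in that of brain, retina and testis 11 of 14. The endogenous c-Myc gene (Myc) had 35.6, 24.1, 26.3 and 32.9.

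Spread among the lungs was small for most genes. Over the 6600 probe sets the median SD of the log2 signal was 0.23, and the median ratio of the highest to the lowest lung 1.43. The median SD was 0.25 at mean signals from 70 to 140, 0.26 from 140 to 280, 0.18 from 1120 to 2240 and 0.27 above 4480. The range above 4480 holds the transcripts among which lung 3 was mostly the lowest. Over the 5153 genes with a passing probe set the highest lung was at least 2 times the lowest for 558 (10.8%) and at least 3 times for 73 (1.42%).

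Lung 4 lay at an end more often than the others. Among the 5153 genes it was the highest lung for 30.3% and the lowest for 37.8%. Lung 3 was highest for 28.5% and lowest for 22.7%, lung 2 for 23.9% and 23.5%, and lung 1 for 17.4% and 15.9%. Without lung 4, 139 genes differed by at least 2 times and 17 by at least 3 times among the remaining lungs, and without lung 2 45 genes differed by at least 3 times.

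**Figure D3:**
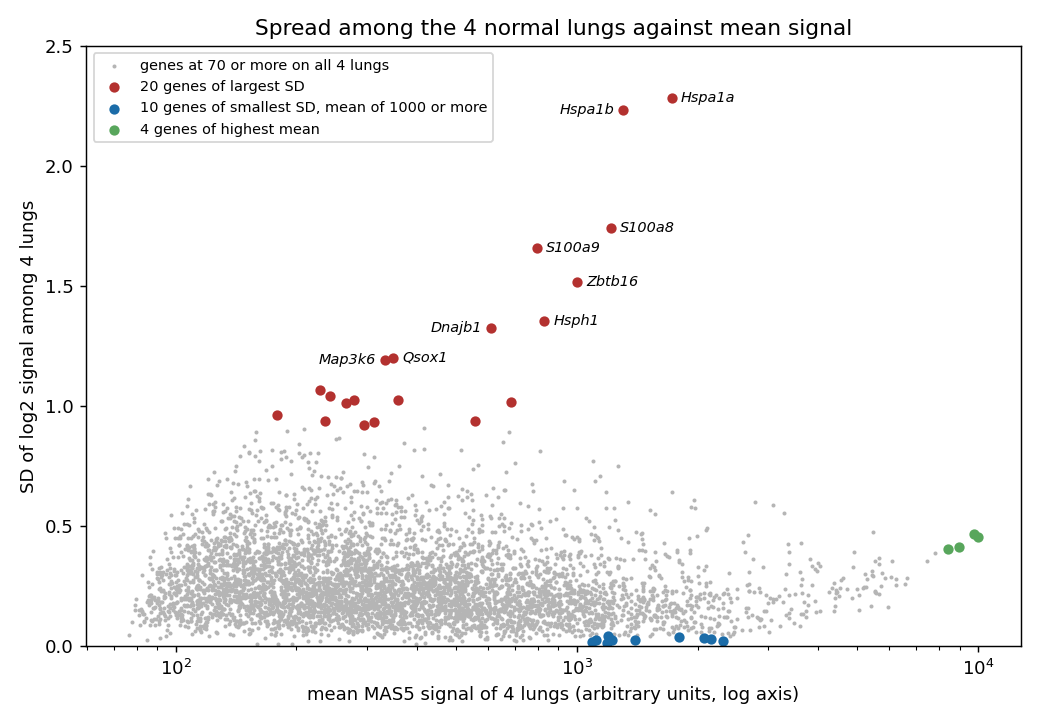
SD of the log2 signal among the 4 lungs against the mean signal (log axis), 1 point for each of 5153 genes. Hspa1a and Hspa1b, at SDs of 2.28 and 2.24, lie highest, S100a8, S100a9 and Zbtb16 follow at 1.74, 1.66 and 1.52, and the median is 0.23.

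Among the 20 genes of largest spread were 7 that were highest in lung 4, and 4 of these were heat shock genes, whose products refold or shelter damaged proteins. Hspa1a, the inducible HSP70, had signals of 297, 251, 235 and 6128, and Hspa1b, its neighbour copy, 247, 168, 223 and 4577. Lung 4 was 20.7 and 18.5 times the next lung, and the other 3 lungs lay close together. The copies have nearly the same sequence, so their probe sets may share transcripts and are not independent.

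Hsph1, an HSP110 that exchanges nucleotide on HSP70, had 274, 290.0, 741 and 2011, so lung 3 was also above lungs 1 and 2. Dnajb1, an HSP40 co-chaperone, had 274, 250.1, 271 and 1654, with lungs 1 to 3 alike. Dnaja1, another HSP40, had 789, 794, 1087 and 2391, and Stip1, which links HSP70 to HSP90, 244, 219, 342 and 765. For Bag3, a nucleotide exchange factor, the signals were 434, 340.1, 458 and 943. These 7 genes were the ones in the heat shock list with lung 4 at least 2 times every other lung and all lungs at 70 or more.

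Across the whole heat shock and chaperone list, 31 of 33 genes were at 70 or more on all 4 lungs, and lung 4 was highest for 20 and lung 3 for 11 of these 31, against 30.3% and 28.5% of all genes. Of the 31, 14 had a highest lung at least 2 times the lowest, against 10.8%. Hsp90aa1, the inducible HSP90 alpha, had 1883, 1923, 2751 and 4573 and Hspa8, the constitutive HSC70, 1592, 1566, 2039 and 3256. The chaperones of the endoplasmic reticulum had no common order. Hspa5 (1301, 1429, 2277 and 2096), Hsp90b1 (1383, 1558, 2192 and 2191) and Pdia4, a disulfide isomerase (143, 125, 393 and 358), were higher in lungs 3 and 4 than in lungs 1 and 2. Pdia3, another isomerase, was highest in lung 3 (981, 748, 1414 and 1052). Canx, calnexin (316, 238, 225 and 537), and P4hb, protein disulfide isomerase (655, 563, 653 and 808), were highest in lung 4, and Dnajb9 had 545, 528, 567 and 501. Hspd1, the mitochondrial HSP60, had a ratio of highest to lowest lung of 1.27 (1423, 1630.3, 1804 and 1674). The summed signal of the list was 20227, 19992, 27084 and 45060.3, a ratio of 2.25 between the highest and the lowest lung, and 1.35 without lung 4.

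Heat shock factor binds arrays of the unit nGAAn in alternating orientation, and 2 facing units read GAANNTTC or TTCNNGAA, which are the same on both strands. The promoters of all 7 genes are shown, as the RefSeq sequence of the 150 bases before the annotated start in GRCm38.p6, because they let the letters be read beside the values. Capitals mark these 8-base motifs and TATAAA.
Hspa1a: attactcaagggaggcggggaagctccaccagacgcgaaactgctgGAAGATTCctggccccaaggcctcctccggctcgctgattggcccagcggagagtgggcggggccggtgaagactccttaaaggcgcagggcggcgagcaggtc
Hspa1b: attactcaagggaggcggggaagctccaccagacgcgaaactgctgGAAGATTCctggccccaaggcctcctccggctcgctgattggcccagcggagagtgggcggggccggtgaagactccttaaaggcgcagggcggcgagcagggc
Hsph1: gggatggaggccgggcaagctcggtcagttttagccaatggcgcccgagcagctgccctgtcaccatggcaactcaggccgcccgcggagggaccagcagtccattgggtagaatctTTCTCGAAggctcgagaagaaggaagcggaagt
Dnaja1: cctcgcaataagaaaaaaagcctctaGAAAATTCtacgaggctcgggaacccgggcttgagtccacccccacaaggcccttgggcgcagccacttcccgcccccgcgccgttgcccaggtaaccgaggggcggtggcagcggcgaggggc
Bag3: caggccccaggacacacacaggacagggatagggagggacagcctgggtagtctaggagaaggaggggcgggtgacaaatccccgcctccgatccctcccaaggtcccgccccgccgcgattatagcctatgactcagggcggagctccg
Dnajb1: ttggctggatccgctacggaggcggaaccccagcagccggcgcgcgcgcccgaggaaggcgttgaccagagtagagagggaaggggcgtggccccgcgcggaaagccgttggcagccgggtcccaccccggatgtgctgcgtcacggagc
Stip1: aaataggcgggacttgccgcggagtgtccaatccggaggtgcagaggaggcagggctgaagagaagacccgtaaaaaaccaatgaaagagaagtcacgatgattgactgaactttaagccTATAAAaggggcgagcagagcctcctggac
They lie at chr17:34972157-34972306, minus strand (Hspa1a), chr17:34959239-34959388, minus strand (Hspa1b), chr5:149636337-149636486, minus strand (Hsph1), chr4:40722318-40722467, plus strand (Dnaja1), chr7:128523433-128523582, plus strand (Bag3), chr8:83608025-83608174, plus strand (Dnajb1) and chr19:7040027-7040176, minus strand (Stip1). The stretches before Hspa1a and Hspa1b differ at 1 of 150 positions and hold GAANNTTC starting 104 bases before the start. Hsph1 holds TTCNNGAA 33 bases and Dnaja1 GAANNTTC 124 bases before it, and Stip1 holds TATAAA 30 bases before it and no 8-base motif. The 150 bases before Bag3 and Dnajb1 hold none of these.

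Within 300 bases, counted from 250 before to 50 after the start, either 8-base motif was found for 5 of the 7 genes (not for Dnajb1 or Stip1), for 9 of 28 genes of the heat shock list with a promoter in the table, for 476 of 4165 genes at 70 or more on all lungs (11.4%) and for 15.1% of all 27025 promoters. The match for Bag3 lay after the start and is not printed. Both Hspa1a and Hspa1b count among the 5, though their printed stretches differ at 1 of 150 positions and hold the same motif. The 7 genes were chosen by their signals, so this is a description.

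A second set of genes was high in lungs 1 and 2 and low in lungs 3 and 4. S100a8 and S100a9, the subunits of calprotectin that fill the cytosol of neutrophils, had 2061, 2271, 310.0 and 234, and 1392, 1376, 265 and 147. Lungs 1 and 2 lay above lungs 3 and 4 in both, and the highest lung was 9.69 and 9.47 times the lowest. The same pair of lungs was high for Il1b, interleukin 1 beta (362, 389, 121 and 97.2), Lcn2, the siderophore-binding lipocalin (757, 566, 482 and 258), and Mmp9, gelatinase B (252, 253, 109 and 41.6). Csf3r, the receptor of granulocyte colony-stimulating factor, was highest in lung 1 (746, 381, 333 and 411), and lactoferrin (Ltf) went the other way (259, 325, 472 and 580.3).

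Of 13 neutrophil genes 7 were at 70 or more on all lungs, and the highest lung was at least 2 times the lowest for all 7, against 10.8% of all genes. The summed signal was 6412, 6116, 2356 and 2201. The promoter of S100a8 is shown for its TATAAA, 30 bases before the start, where this box usually stands.
S100a8: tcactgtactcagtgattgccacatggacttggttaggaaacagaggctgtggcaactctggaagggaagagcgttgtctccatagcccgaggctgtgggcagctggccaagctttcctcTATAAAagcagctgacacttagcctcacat
It lies at chr3:90668921-90669070, plus strand.

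The platelet genes Gp9 and Gp1bb, subunits of the receptor for von Willebrand factor, had 281, 253, 14.4 and 32.4, and 211, 214, 10.1 and 29.2, so they were over the limit in lungs 1 and 2 and below it in lungs 3 and 4. Gp5 had 86.7, 47.2, 8.43 and 18.1. Pf4, platelet factor 4, was below 70 in every lung (19.6, 10.7, 26.5 and 44.7). The summed signal of these 4 genes had a ratio of 10.1 between the highest and the lowest lung, which rests on signals below 70 in lungs 3 and 4, and 4.81 without lung 3. The red cell genes Alas2, the first enzyme of heme synthesis in erythroid cells (2453, 2817, 1205 and 1358), and Slc4a1, the anion exchanger band 3 (296, 401, 68.1 and 95.3), were also higher in lungs 1 and 2 than in lungs 3 and 4. Their ratios of highest to lowest lung were 2.16 and 5.63 after quantile normalization. That of Hba-a1 was 1.96 as deposited and 1.02 after it. Quantile normalization gives equal ranks equal values, and Hba-a1 ranked 1 or 2 on every array. Its ratio near 1 was therefore fixed in advance and does not show that hemoglobin was alike in the lungs. Bpgm, which makes the allosteric effector of hemoglobin in red cells, had 918, 1118, 471 and 236. The part of blood left in each lung in these differences was not tested.

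Zbtb16, a zinc finger repressor induced by glucocorticoids, had 1590.3, 1649, 593 and 178, and a second probe set had 50.7, 88.2, 20.5 and 23.7. Fkbp5, an immunophilin that is a target of the glucocorticoid receptor, had 437, 644, 223 and 129.7, Saa3, an acute phase protein, 482, 512, 71.6 and 53.5, and Sult1a1, a phenol sulfotransferase, 378, 291, 188 and 133. In these 4 genes lung 4 was the lowest and lung 3 the next lowest. Fkbp4, a co-chaperone of HSP90 in the same list, had the opposite order (925, 864, 1481 and 2086). Txnip, which binds thioredoxin, and Mt2, a metallothionein, differed less (2187, 2179, 1667 and 1903, and 1330.1, 1121, 795 and 993). Of 15 genes of this list at 70 or more on all lungs, 7 had a highest lung at least 2 times the lowest and 7 were highest in lung 1, against 10.8% and 17.4% of all genes.

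Qsox1, a sulfhydryl oxidase, had 512, 613, 151 and 119, Map3k6, a kinase of the stress pathway, 468, 605, 131 and 126, and Hs3st1, a heparan sulfate sulfotransferase, 462, 390.1, 158 and 105. These too were higher in lungs 1 and 2 than in lungs 3 and 4. A second probe set of Qsox1 had the same order of lungs 1 and 2 over 3 and 4 with a smaller difference (192, 209, 109 and 129). Snhg6 (279, 264, 79.2 and 93.1) and the probe set annotated to Mir686 (796, 885, 275 and 270.2) were also among the 20 genes of largest spread, as were Wdr5 (234, 449, 294 and 85.8) and Ptprc, the leukocyte antigen CD45 (467, 319, 285 and 105), both lowest in lung 4.

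**Figure D4:**
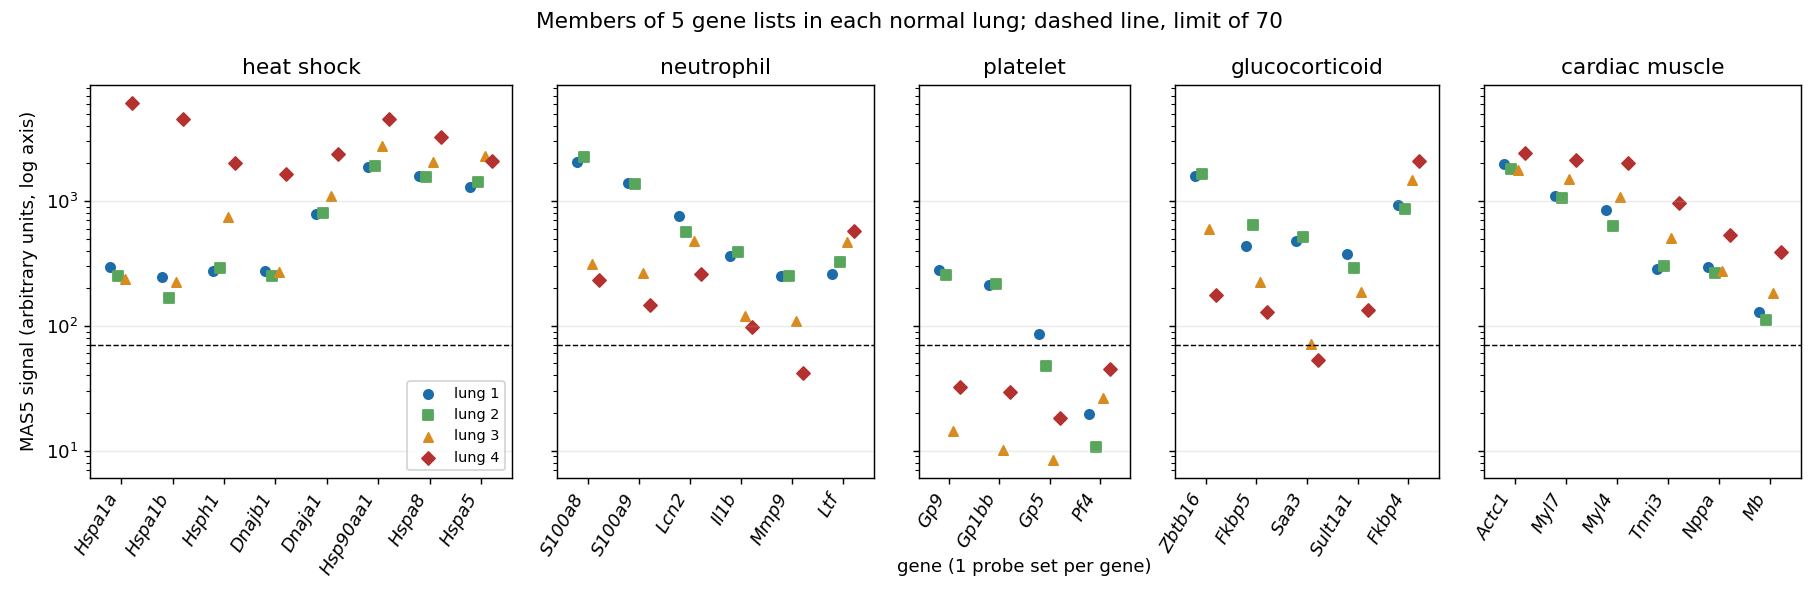
Signals, on a log axis, of members of 5 gene lists in each of the 4 normal lungs, with the limit of 70 as a dashed line. Hspa1a reaches 6128 in lung 4 against 235 to 297 in the others, S100a8 is at 2061 and 2271 in lungs 1 and 2 and at 310.0 and 234 in lungs 3 and 4, and the cardiac gene Myl4 ranges from 632 in lung 2 to 2011 in lung 4.

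Of 17 cardiac muscle genes on the array 12 were at 70 or more on all 4 lungs, against 62.5% of all genes, and 1 was below it on all 4. The summed signal of the list was highest in lung 4. In the mouse, cardiac muscle sheathes the pulmonary veins. Actc1, cardiac actin, had 1980.0, 1815, 1773 and 2419, Myl7 and Myl4, the light chains of atrial myosin, 1098, 1052, 1507 and 2119.6, and 847, 632, 1069.8 and 2011, and Myh6, the alpha heavy chain, 515, 539, 832 and 1018. Tnni3, cardiac troponin I, had 285, 300.1, 509.9 and 962, Nppa, the atrial natriuretic peptide, 294, 266, 274 and 536, and Mb, myoglobin, 128, 112, 184 and 389.9. Of 12 cardiac genes at 70 or more on all lungs, lung 4 was highest for 11, against 30.3% of all genes. The summed signal was 6953, 6403, 8715 and 12775. How much heart or vein went into each sample is not given in the sources used here.

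The summed signal of the skeletal muscle list was highest in lung 4 (1900.3, 1278, 1261 and 2023) and that of the squamous list in lung 1 (1345, 689, 542 and 1170.3). Of 14 skeletal muscle and 10 squamous genes on the array, 3 of each were at 70 or more on all lungs, against 62.5% of all genes. Of each 3, 2 were highest in lung 4, against 30.3% of all genes, too few genes to describe either list. Acta1, skeletal actin, was highest in lung 1 (527, 4.77, 180.0 and 185). Krt4 and Krt13, the keratins of moist squamous epithelium such as that of the esophagus, had 734, 272, 202 and 458, and 184, 6.73, 17.8 and 24.6. Krt13 was above 70 in lung 1 only, and Krt4 was highest there. Rbfox2, a splicing factor (153, 121, 107 and 533), the immunoglobulin variable gene Ighv3-6 (158, 112, 170.4 and 503) and Chrne, a subunit of the acetylcholine receptor (212, 128, 315 and 592), were highest in lung 4.

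Genes on the sex chromosomes split the lungs otherwise. Xist, the RNA that silences an X chromosome in female cells, had 21.8, 7.62, 159.9 and 8.01. The Y-linked Eif2s3y, a translation initiation subunit, had 270.3, 213, 7.17 and 148, and Uty, a histone demethylase relative, 58.1, 48.5, 1.80 and 31.4. Lung 3 thus had the highest Xist and the lowest Eif2s3y, with the reverse in lungs 1, 2 and 4. The X-linked Eif2s3x had 1067, 1235, 1512 and 1055. Of 13 circadian clock genes at 70 or more on all lungs, lung 3 was the lowest for 7 and lungs 1, 2 and 4 for 1, 2 and 3, against 22.7% of all genes for lung 3. The 7 included Nr1d1, a repressor of the core clock (403, 424, 194 and 438), Per1 (229, 299, 129 and 234), Tef (639, 1056, 396 and 799.7) and Cry2 (174, 223, 125 and 205). Only genes from the 7 are named here, and Per1 and Cry2 were chosen after their values were seen. Lung 3 was the highest lung for 2 of the 13. Hours of death are not given in the sources used here.

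**Figure D5:**
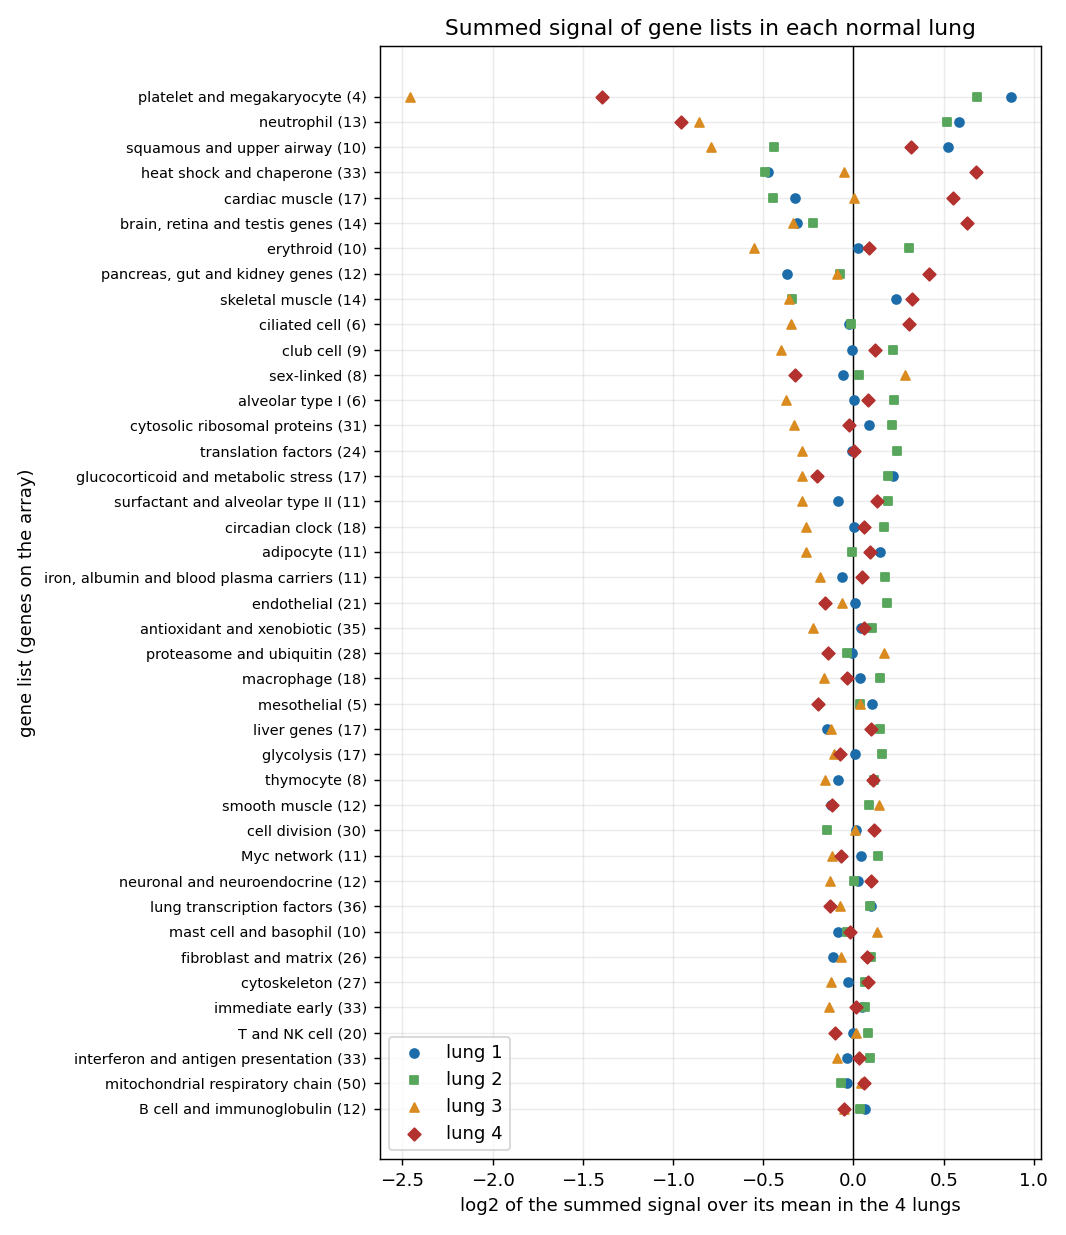
Summed signal of 41 gene lists in each of the 4 lungs as log2 of its ratio to the mean of the 4, ordered by the ratio of highest to lowest lung, with the number of genes on the array in brackets. Platelet, neutrophil, squamous and heat shock sums have the widest ratios, 10.1, 2.91, 2.48 and 2.25, and B cell genes and the respiratory chain the smallest, 1.09.

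The ratio of the highest to the lowest summed signal was 1.27 at the median of 41 lists, at or above 2 for 4 of them and below 1.25 for 19. As a mean of log2 signals with a floor of 70 the ratio was 1.97 for platelet, 1.97 for heat shock, 1.91 for neutrophil, 1.87 for cardiac and 1.37 for squamous genes. The ratio of sums was 1.81 for erythroid, 1.61 for skeletal muscle, 1.58 for ciliated cell, 1.54 for club cell and 1.52 for type I genes. It was 1.09 for 50 genes of the mitochondrial respiratory chain (38810.0, 38009, 41038 and 41532), in which Cox8b, the muscle form of a cytochrome oxidase subunit (201, 101, 155 and 377), and Ndufc1, of complex I (403, 218, 721 and 479), differed by over 3 times. It was 1.09 for B cell and immunoglobulin genes, 1.14 for T and NK cell genes, 1.15 for fibroblast and matrix genes and 1.15 for the cytoskeleton. The surfactant list had 32565, 39371, 28258 and 37774, a ratio of 1.39, with lung 3 lowest, and a ratio of 1.07 after quantile normalization. Of its 10 genes at 70 or more on all lungs, lung 4 was the lowest for 5 and lung 3 for 3, against 37.8% and 22.7% of all genes. The erythroid, club cell and type I sums were also lowest in lung 3. Their ratios were 1.14, 1.07 and 1.16 after quantile normalization, and 1.80, 1.54 and 1.51 after scaling to 1 median. The surfactant ratio after that scaling was 1.39. These sums hold genes near the top of every array, such as Hba-a1, Sftpc, Scgb1a1 and Ager. Quantile normalization gives equal ranks equal values, so it brings such genes together and cannot show that these sums were alike. The skeletal muscle and ciliated cell sums, lowest in lung 3 too, kept ratios above 1.5 after quantile normalization. Whether the lungs differed in these cell types was not tested.

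The most even genes with a mean of at least 1000 varied by a few percent. Dap, a death-associated protein, had 1203, 1197, 1184 and 1181, an SD of 0.01 on the log2 scale. Nedd4, a ubiquitin ligase, had 1089, 1071, 1098 and 1102, and Cox6c, a subunit of cytochrome oxidase, 2272, 2306, 2299 and 2353. Prkar1a, a regulatory subunit of protein kinase A, had 2177, 2179, 2185 and 2096, and the class II antigen chain H2-Aa 2031, 2118, 2036 and 2120.2. The others were Gabarapl2, an autophagy protein (1370.1, 1400.4, 1433 and 1396), Dynll2, a dynein light chain (1109.6, 1123, 1098 and 1146), Sec61a1, the pore of the translocon (1198, 1248, 1216 and 1239), Sar1a, a GTPase of vesicle budding (1728, 1844, 1807 and 1796), and Smim14 (1157, 1189, 1239 and 1186).

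Promoter composition differed with rank, here the order by mean signal of the 8251 genes, 1 probe set each, and not of all probe sets. Of the 6572 genes with a promoter in the RefSeq table, TATAAA on either strand within the 300 bases was found for 15 of 80 among the first 100 genes by mean signal (18.8%), for 11.8% of those ranked 101 to 500, for 7.31% of those ranked 501 to 2000 and for 6.99% of the remaining genes at 70 or more on all lungs. It was 15.6% among genes below 70 on all 4 lungs, 10.4% over all genes on the array and 14.2% over all 27025 promoters. With TATAAA on the coding strand starting 40 to 20 bases before the start, the shares were 3.75%, 3.11%, 1.73%, 1.34% and 5.93% in the same order. They compare with 3.04% over all genes on the array and 2.22% over all 27025 promoters, so the share of the first 100 genes was near that of all genes. The 3 of 80 were H2-D1, Sprr1b and Rnf10. Median GC content was 59.0% for the first 100 genes, 61.8% for ranks 101 to 500, 62.0% for ranks 501 to 2000, 61.0% for the remaining genes at 70 or more and 56.0% for genes below 70. Among the 100 genes of largest spread TATAAA was found for 13 of 77 (16.9%), against 7.68% of all genes at 70 or more on all lungs. Sftpc and Scgb1a1 were not among the promoters matched.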

How the data were processed

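RNA of whole lungs was hybridised to Affymetrix U74v2 arrays. The deposited values are MAS5 signals, linear intensities that the authors scaled to 1 target per array, and per the labels each column is 1 array of 1 animal. The 4 control lung columns were read as deposited, and the tumor arrays were not used here. Of 12488 probe sets 66 array controls were left out. Through the platform annotation and RefSeq, 10833 of 12422 probe sets had 1 gene symbol (8251 symbols), 396 had several and 1193 none, and only the first were named. No value was at or below 0.

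Mean, SD, SD of log2, ratio of highest to lowest lung and summed signal of 41 lists (742 of 933 listed genes on the array) were computed with Python 3.11.15, numpy 2.4.6 and pandas 2.3.3, and were tested on simulated data. The members and lists were chosen with earlier results of these data known. Genes were named from a rule. The rule took the 25 of highest mean, the 20 of largest SD and the 10 of smallest SD at a mean of 1000 or more. In each list it took the 4 highest members, those differing 3-fold and defining members below 70. The probe sets next to the limit were added. Not every gene that fell under the rule is named, and from some lists, such as the T and NK cell list, none is. Bag3, Canx, Chil3, Cma1, Col1a1, Col3a1, Cry2, Dnajb9, Hspd1, Krt13, Ltf, Mmp9, Napsa, Nppa, P4hb, Pdia3, Per1, Reg3g, Rnf10, Saa3, Sftpd, Slc34a2, Slc4a1, Sult1a1 and Xist were chosen after their values were seen, as was the search for heat shock motifs. Promoters were RefSeq sequences, build GRCm38.p6, the first listed for each gene. Protein lengths were not analysed here. The number of arrays limits the precision.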

Additional observations from a re-analysis of the deposited data

Results flagged for a closer look

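For 157 genes and 41 list sums, 1 lung was looked for that stood apart from the other 3, by the gap to its neighbour over the whole range (above Dixon's limit for 4 values). Many of these genes were chosen for their spread or after their values were seen, so their number is not read against the 1 in 20 that chance gives per gene. Lung 4 was apart on the high side for Hspa1a (6128), Hspa1b (4577), Dnajb1 (1654), Rbfox2 (533), Ighv3-6 (503), Nppa (536), Ccnb2 (318), Thrsp (368), G6pc (282) and the sum of the brain, retina and testis list (778), most of whose genes were below 70. Lung 4 was apart on the low side for Prkar1a (2096), by a small difference. Lung 3 was apart for Xist (159.9, high), Igha (1828, low), Cyp4b1 (4030.6, low) and Nr1d1 (194, low), and lung 1 for Krt13 (184, high). Over all 6600 probe sets at 70 or more on all lungs, 516 (7.82%) passed the same limit. In 251 of them lung 4 was alone high and in 120 alone low, against 63 and 15 for lung 3, 29 and 14 for lung 2, and 12 and 12 for lung 1.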

How the results depend on the processing

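No paired analysis was possible because only 1 group of lungs was described. Of 91 recomputed values of the leading results 81 stayed within 1.5 times the value given, and of 1318 for single genes and the other lists 1234 did. The count of 6600 probe sets at 70 or more on all lungs stayed within 1.5 times its value under every alternative run. Of the 100 probe sets of highest mean, 95 to 100 were shared under the runs that kept all probe sets. When probe sets marked as less specific were left out, 67 remained. That run only removes probe sets, so 67 is the number of the 100 not so marked. It is among the 81 but could not test the order. The cardiac ratio, 2.00, also stayed within 1.5 times its value, but was 1.36 without lung 4. A ratio of highest to lowest lung cannot fall below 1. For a ratio under 1.5, such as the 1.42 of the glucocorticoid list, staying within 1.5 times therefore does not show that the difference held. With all probe sets and a floor of 70 the median SD was 0.15 and 65 of the 100 genes of largest spread were shared. As a mean of log2 with that floor, the ratio was 1.91 for the neutrophil list and 1.97 for the platelet list. Leaving out each lung in turn gave 139 to 501 genes at 2 times or more, 17 to 68 at 3 times or more, 39 to 86 shared genes of largest spread, and ratios of 1.35 to 2.25 (heat shock) and 4.81 to 10.1 (platelet). The low ends came without lung 4, except platelet (4.81 without lung 3), and without lung 2 45 genes differed 3-fold. The rank of Hspa1a by mean signal, 372, was 3804 without lung 4, and its rank by the median signal of the lungs was 3622. The cause of these shifts was not tested, beyond the removal of the lung itself.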
